A study of Mus musculus with 20 samples.

Results

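Liver samples were divided here by how strongly they read for fat tissue. Each array received an adipose score, the mean log2 level of Adipoq and Cfd, and within each of 2 slide series the 5 highest arrays were called high and the 5 lowest low. This gave 10 high and 10 low arrays of 20 in all. The classes were thus chosen by the measured levels of Adipoq and Cfd, so the values of these genes in the classes are given as a description with no test. Tests between the classes are on the other genes. The labels took no part in the rule, and the classes and the score were also set against them. Adipoq encodes adiponectin, a hormone that adipocytes release into blood, and Cfd encodes adipsin (complement factor D), a serine protease that adipocytes also secrete. Both serve as markers of white fat, and healthy hepatocytes are known to make little of either. A piece of liver can carry fat, muscle or pancreas from its surface and its hilum, and fat-laden hepatocytes can also switch on some lipid droplet genes that adipocytes use.

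The study measured total liver RNA of male C57BL/6J mice on Agilent one-colour arrays. All mice received a diet with 60% of its energy from fat from weaning on, and the liver of each was sampled when the mice were 6 weeks old. One group of 10 arrays came from mice that became obese on this diet (responders), and the other 10 from mice that resisted obesity (non-responders). No chow-fed group is part of the comparisons. The labels do not say that each array was a separate mouse, so p-values measure the spread between arrays. The slide series are the 2 runs of slide barcodes, 10 arrays each, and they coincided with the scan date. The 75th percentile of the processed signal, to which each array was scaled, was 280 to 657 intensity units, and 55.8% to 71.2% of probes lay well above background. High and low arrays overlapped in both measures, with percentiles of 282 to 657 in the high arrays and 280 to 593 in the low ones. As a check of the tissue, the mean log2 level of the 14 hepatocyte genes with a value on every array was 7.35 to 8.05 in the high arrays and 7.37 to 7.85 in the low ones.

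Each marker was read by 1 probe of 60 bases, shown because these 2 sequences define the score. In the mm9 build of the array design the Adipoq probe lies at chr16:23157576-23157635 and the Cfd probe at chr10:79355302-79355361. Both are printed in lower case with no base singled out.
Adipoq: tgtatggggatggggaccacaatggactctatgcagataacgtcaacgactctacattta
Cfd: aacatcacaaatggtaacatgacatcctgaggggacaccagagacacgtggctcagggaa
The Cfd probe was well above background on 20 arrays, and the Adipoq probe on all but 1, responder 9.

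The score ran from -4.90 in responder 9 to 1.45 in non-responder 7. In slide series 1 the high arrays were non-responder 3 at 1.43, non-responder 2 at 0.93, non-responder 4 at 0.66, responder 3 at 0.34 and non-responder 1 at 0.11. The low arrays of that series were non-responder 5 at 0.05, responder 1 at -0.65, responder 2 at -1.33, non-responder 6 at -2.05 and responder 10 at -2.35. In slide series 2 the high arrays were non-responder 7 at 1.45, non-responder 10 at -0.69, responder 7 at -1.87, responder 8 at -2.13 and responder 6 at -2.73. Its low arrays were responder 5 at -2.83, non-responder 8 at -3.28, non-responder 9 at -3.49, responder 4 at -3.82 and responder 9 at -4.90. The arrays just inside and just outside the classes were close: the gap between the fifth and the sixth array was 0.06 in slide series 1 and 0.10 in slide series 2. The classes are relative to the series, because the mean score was -0.29 ± 1.27 (SD, n = 10) in slide series 1 and -2.43 ± 1.79 (SD, n = 10) in slide series 2. As a result 4 of the 5 high arrays of slide series 2 lay below the highest low array of slide series 1.

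**Figure D1:**
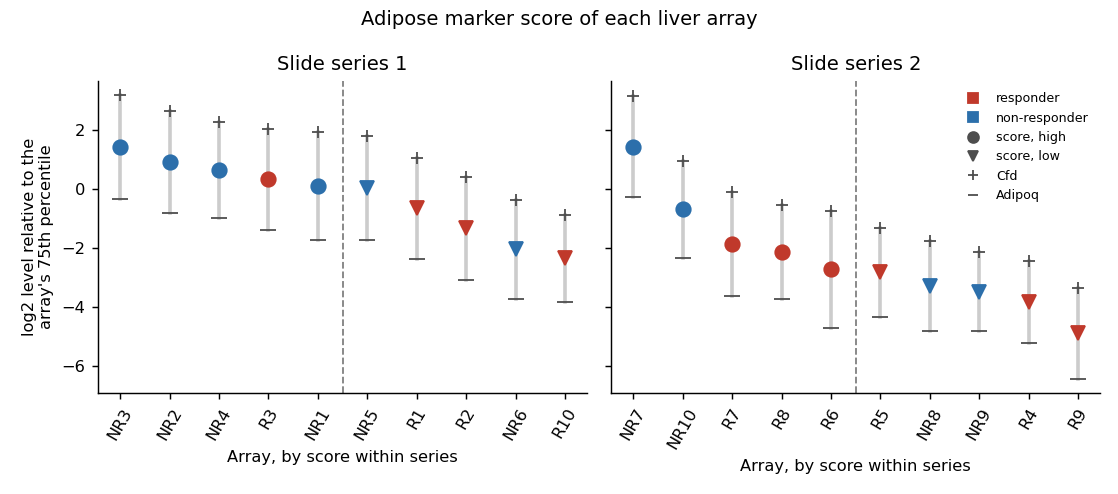
Log2 levels of Cfd (plus signs) and Adipoq (dashes) and their mean, the adipose score (circles for high, triangles for low arrays), for each array of the 2 slide series; red marks responders (R), blue non-responders (NR), and the dashed line parts the classes. The score falls from 1.43 to -2.35 in series 1 and from 1.45 to -4.90 in series 2, with no step at the line between high and low.

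Adipoq itself spanned -4.73 to -0.25 in the high arrays, with a median of -1.56, and -6.45 to -1.72 in the low arrays, with a median of -4.09. Cfd spanned -0.73 to 3.20 in the high arrays, with a median of 2.01, and -3.36 to 1.82 in the low arrays, with a median of -1.09. The 2 genes ordered the arrays much alike, with a Pearson correlation of 0.990 over the 20 arrays, which share their scaling. A division by Cfd alone gave the same class for 20 of 20 arrays, and a division by Adipoq alone for 16 of 20.

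Responders and non-responders fell on both sides of the division. Of the 10 non-responder arrays 6 were high and 4 low, and of the 10 responder arrays 4 were high and 6 low. The shares did not differ past the threshold, with an odds ratio of 0.463 for responders (95% interval 0.0522 to 3.61, two-sided Fisher's exact p = 0.656). In slide series 1, 4 of the 6 non-responder arrays were high against 1 of the 4 responder arrays. In slide series 2 the high arrays were 2 non-responders and 3 responders, and so were the low arrays.

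The score itself averaged -2.23 ± 1.50 (SD, n = 10) in responders and -0.49 ± 1.85 (SD, n = 10) in non-responders. Responder scores ran from -4.90 to 0.34 and non-responder scores from -3.49 to 1.45, so the groups overlapped widely. With slide series as a term the score was lower in responders by a difference of -1.37 (95% interval -2.74 to -0.00), and the two-sided exact permutation test over 44100 arrangements within series gave p = 0.0478. Within slide series 1 alone the difference was -1.19 (exact permutation p = 0.167), and within slide series 2 alone it was -1.55 (exact permutation p = 0.195). The p-value lay close to the threshold, and the call was lost when any 1 of 14 arrays was left out. These were responders 1, 2, 4, 5, 6, 9 and 10 and non-responders 1, 2, 3, 4, 5, 7 and 10. Without non-responder 7 the difference was -0.91 (exact permutation p = 0.133), and without the other 13 p lay between 0.0539 and 0.103.

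The question for the other genes was which of them differ between livers of high and of low score. Only Ccl17 passed in this comparison of the classes, and it was higher in the high arrays. Ccl17 encodes a chemokine that attracts T cells through the receptor CCR4 and is made mainly by dendritic cells and some macrophages. Its log2 level in the high arrays ran from -4.66 to -3.52 with a median of -4.00, and in the low arrays from -5.83 to -4.43 with a median of -4.84. Within each slide series all 5 high arrays exceeded all 5 low ones, while across series the ranges overlapped. The difference was 1.01 ± 0.13 (SE), 2.01-fold, with an adjusted p of 0.00304 (limma, Benjamini-Hochberg over 17820 features), and it was 0.96 in slide series 1 and 1.06 in slide series 2. Ccl17 is a dim feature: its probe lay well above background on 10 of 10 high and 5 of 10 low arrays. With normexp background correction and an added offset of 50 intensity units its difference shrank to 0.19 (limma adjusted p = 0.997). The correction was not run without the offset, so the part of each in this is not known. With the arrays divided by Adipoq alone the Ccl17 difference was 0.62 (limma adjusted p = 0.996).

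Counted over all features, 1 of 17820 passed in the higher direction (0.00561%) and 0 in the lower direction (0%) by limma. At an unadjusted p under 0.05 there were 1078 features, 569 higher and 509 lower in high arrays, where 891 would be 5% of those tested. The median difference over all features was 0.00, and 9099 of 17820 were positive. A complete separation of high from low in both slide series was seen for 3 features in the higher direction (0.017% of the 17682 with a value on every array) and for 1 in the lower direction (0.00566%). These were Ccl17, Vav3 and Sprtn, and in the lower direction Srr. The difference did not depend on slide series past the threshold for any feature (0 of 17820, 0%, by the limma interaction test, 277 at an unadjusted p under 0.05).

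The genes named next were those of smallest p among named genes with the same sign in both slide series. The shared sign was thus a condition of naming them, and none passed. Vav3, a guanine nucleotide exchange factor, was -4.18 to -3.76 in the high arrays (median -4.03) and -4.78 to -4.10 in the low arrays (median -4.38). Its difference was 0.37 ± 0.06 (SE), with a limma adjusted p of 0.0777. Inka1 had a difference of 0.84 ± 0.18, Abcc4, an exporter of organic anions and cyclic nucleotides, 0.43 ± 0.10, and B3galnt1, a glycosyltransferase, 0.44 ± 0.10. Sprtn, a protease that clears DNA-protein crosslinks, differed by 0.34 ± 0.07. Thbd, the endothelial thrombin receptor thrombomodulin, differed by 0.44 ± 0.11, and Erg, an endothelial transcription factor, by 0.24 ± 0.06, which was -0.11 in the authors' deposited values. Hdc, the enzyme that makes histamine, differed by 0.32 ± 0.08.

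On the lower side Abcc10, an efflux pump, was -5.10 to -4.22 in the high arrays (median -4.62) and -4.53 to -3.71 in the low arrays (median -4.09). Its difference was -0.54 ± 0.10 (SE), with a limma adjusted p of 0.206 and the same value in each slide series. Srr, the serine racemase, was 0.56 to 1.30 in the high arrays and 1.21 to 1.64 in the low arrays, a difference of -0.37 ± 0.08 (adjusted p = 0.461). Mical2, an actin-oxidising enzyme, differed by -0.52 ± 0.13, Itga5, an integrin subunit that binds fibronectin, by -0.43 ± 0.11, and Wdr54 by -0.39 ± 0.11. Scaf1, Ap3s2, Camsap3, Tstd2 and Pnpla6 lay between -0.32 and -0.24. None of these passed, and the adjusted p-values of the last 8 genes lay between 0.628 and 0.645.

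The other adipocyte markers were mostly higher in the high arrays, and none passed the test of the classes. The list held 13 genes, of which 10 passed the filter on dim probes (well above background on at least 5 of 20 arrays), so a member could pass through the high arrays alone. Lep, Adig and Acvr1c did not pass that filter, being well above background on 0, 0 and 1 array. Of the 10 tested members 8 were higher, with a median difference of 0.73 against 0.00 over all features. Fat tissue was not weighed or separated. More fat cells, more RNA per fat cell and RNA of fat-laden hepatocytes therefore cannot be told apart in these bulk samples.

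Plin1, the coat protein of the adipocyte lipid droplet, was -5.96 to -2.12 in the high arrays (median -3.83) and -6.99 to -3.56 in the low arrays (median -5.89). It was well above background on 9 high and 2 low arrays, and the classes overlapped. Non-responder 9 read -3.56 at a score of -3.49, and within slide series 1 the classes did not overlap. The difference of Plin1 was 1.54 ± 0.48 (SE, limma unadjusted p = 0.00465, adjusted p = 0.71). Retn, the adipocyte hormone resistin, was -6.67 to -2.20 in the high arrays (median -3.80) and -7.24 to -3.67 in the low arrays (median -5.92). Its difference was 1.77 ± 0.49 (limma adjusted p = 0.645), and 7 high arrays and 1 low array were well above background. For both genes most low arrays hold only an upper bound, so no fold is given. With normexp background correction and the offset of 50 the differences were 0.36 for Plin1 and 0.38 for Retn. Trarg1, a protein of the insulin-regulated glucose transporter vesicles, was -4.53 to -3.90 in the high arrays and -6.24 to -4.28 in the low arrays, a difference of 0.70 ± 0.17. The lowest value of Trarg1 was that of non-responder 9, and without that array the difference was 0.56.

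Nnat, neuronatin, differed by 0.77 ± 0.22, Slc2a4, the insulin-regulated glucose transporter GLUT4 of fat and muscle, by 1.50 ± 0.76, and Rbp7, a retinol-binding protein, by 0.94 ± 0.50. Aqp7, the glycerol channel of fat cells, differed by 0.45 ± 0.26, and Sncg, gamma-synuclein, by 0.27 ± 0.28. The 2 members with negative values were Adrb3, the beta-3 adrenergic receptor, at -0.23 ± 0.14, and Lipe, hormone-sensitive lipase, at -0.04 ± 0.07. Lipe was also the most even member, at -1.12 to -0.44 in the high arrays and -1.09 to -0.46 in the low ones.

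The score varied continuously, so the same genes were also fitted against it directly, with slide series as a term. This fit called 82 features rising with the score (0.46% of 17820) and 3 falling (0.0168%), by limma at an adjusted p under 0.05. Of the 85, 67 had an unadjusted p under 0.05 between the classes, and 85 of 85 had the sign of the class difference. The classes were cut from the same score on the same arrays, so this agreement is no separate support. The slope is the log2 change per 1 log2 unit of score, so a gene whose level followed the markers in full would have a slope near 1. Ccl17, the one feature called between the classes, had a slope of 0.27 (limma adjusted p = 0.0694) and did not pass. Among the rising features slopes ran from 0.10 to 1.03, with a median of 0.27, and 58 of the 82 lay well above background on all 20 arrays. The largest slope, 1.03 ± 0.02 (SE), was that of an unnamed probe, A_52_P483983, for which the files used here give no gene. Its level differed from that of Cfd by -1.51 to -1.04 on every array, so it repeated one of the score genes and adds no separate reading.

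Among adipocyte markers 4 of 10 rose with the score: Retn with a slope of 0.82 ± 0.11 (adjusted p = 0.0013), Plin1 with 0.74 ± 0.11 (adjusted p = 0.00366), Rbp7 with 0.59 ± 0.13 and Nnat with 0.32 ± 0.06, where 0.46% of all features rose. Each of these 4 reached the filter through the high arrays, with 1 to 4 low arrays well above background, so the count is a description of the members and supports nothing further. With normexp and the offset of 50 the Plin1 slope was 0.22 (limma adjusted p = 0.0656) and did not pass. That of Retn was then 0.22 (limma adjusted p = 0.0137) and passed. Slc2a4 had a slope of 0.87 and Trarg1 of 0.20, and neither passed. Of 16 fat storage genes shared by adipocytes and fatty liver, 3 rose, against 0.46% of all features. These were Fabp4, the fatty acid carrier of fat cells and macrophages (0.31 ± 0.04, adjusted p = 0.000276), Cidea, a droplet fusion protein prominent in brown fat (0.87 ± 0.18), and Cd36, a fatty acid importer (0.17 ± 0.04). The level of Fabp4 ran from 2.61 to 4.10 in the high arrays (median 3.44) and from 2.04 to 3.61 in the low arrays (median 2.76). Plin2, the droplet coat protein of hepatocytes, had the opposite sign in the class comparison, at -0.49 ± 0.22 (limma unadjusted p = 0.0402, not passed).

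The other genes of smallest p in the slope fit were of several kinds, and they were picked for naming after their values were seen. Aoc3, the vascular adhesion protein and amine oxidase abundant in fat and smooth muscle, had a slope of 0.49 ± 0.05 (adjusted p = 1.5e-05). Chst1, a sulfotransferase, followed with 0.31 ± 0.03, Apcdd1, a Wnt inhibitor, with 0.40 ± 0.05, and Prkar2b, the protein kinase A subunit typical of fat and brain, with 0.34 ± 0.05. Others that rose were Mfap2, a microfibril protein (0.24 ± 0.04), Col1a2 (0.17 ± 0.04) and Col6a2 (0.17 ± 0.03), both collagen chains, Mgp, the matrix Gla protein (0.31 ± 0.07), and the intermediate filament gene Vim (0.17 ± 0.03). Cd34, found on vessel and progenitor cells, had a slope of 0.34 ± 0.06, and Pi16, known from fibroblasts around vessels, one of 0.50 ± 0.10. Retnla, a protein of alternatively activated macrophages, had 0.71 ± 0.12, F13a1, the coagulation factor of tissue macrophages, 0.43 ± 0.07, and Cma1, a mast cell chymase, 0.34 ± 0.07. The 3 falling features were C9, a complement component that hepatocytes secrete (-0.12 ± 0.02), Defb34, a beta-defensin (-0.16 ± 0.03), and an unnamed probe. Of the genes in this paragraph, Aoc3, Apcdd1, Retnla, F13a1, Cma1 and Defb34 were not well above background on every array.

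Single arrays moved this count. Without non-responder 7, the array of highest score, only 4 features were called (0.0224%): Aoc3, Chst1, Fabp4 and the unnamed probe. All 85 kept their sign, and the median ratio of the slopes without that array to those with it was 0.914. The 85 were chosen by their slopes on arrays that this fit shares, so the kept signs are no separate support. The count was 252 without responder 2, 56 without non-responder 2, 52 without responder 10, 47 without non-responder 10, 45 without responder 4, 36 without non-responder 6 and 29 without responder 9. With responder label as a further term the count was 14, and 85 of 85 kept their sign, again on the arrays that chose them. Slide series 1 alone called 3 features and slide series 2 alone 22. Without slide series as a term 900 features were called, a fit in which the difference in score between the series enters the slope.

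**Figure D2:**
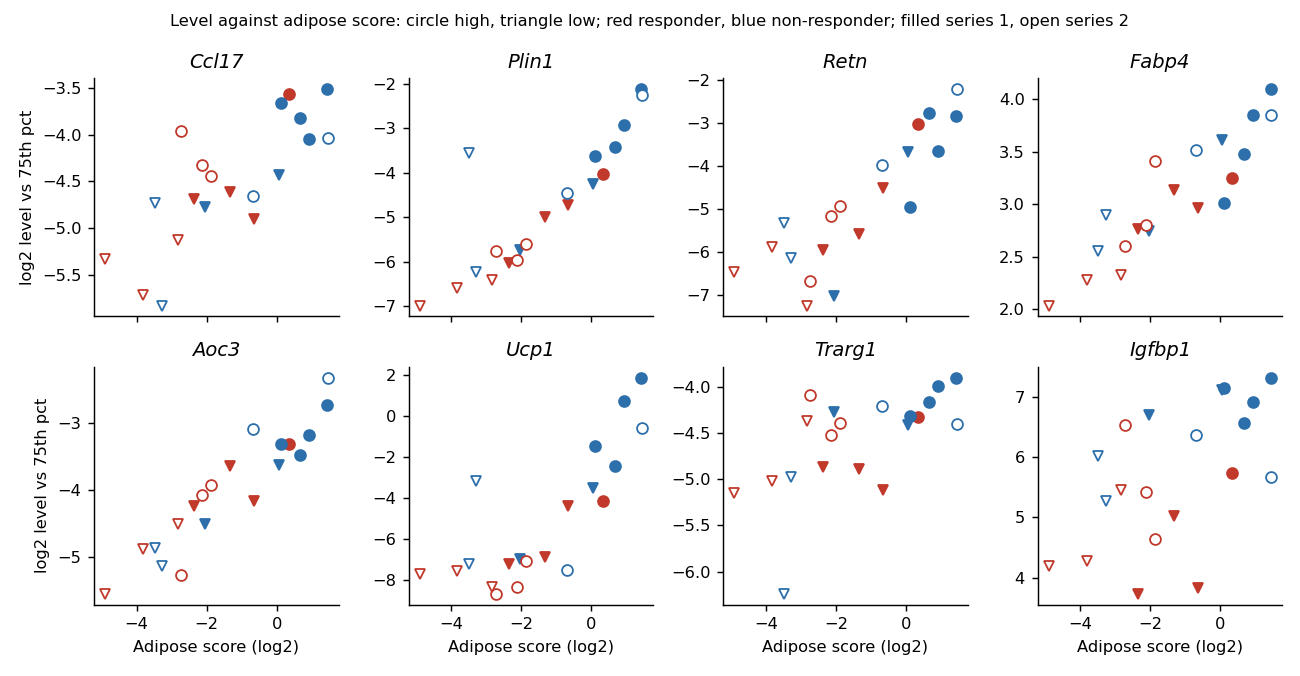
Log2 level (y) against adipose score (x) for 8 genes on the 20 arrays; circles are high and triangles low arrays, red responders and blue non-responders, filled symbols slide series 1 and open symbols slide series 2. Plin1, Retn, Fabp4 and Aoc3 climb over the whole range of score, with 1 low array of Plin1 at -3.56 away from the rest. Ccl17 separates the classes within each series, while its slope on the score did not pass.

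Of the brown fat genes none passed, and the one that defines the tissue was high in a few arrays. Of 10 genes on the list 6 were tested, 5 were higher in the high arrays and none passed, with a median difference of 0.61 that was -0.02 with the replicate number as a block. Ucp1, the uncoupling protein that defines brown fat, was highest in non-responder 3 at 1.85, non-responder 2 at 0.72 and non-responder 7 at -0.60, which are also the 3 arrays of highest score. In the other arrays it ran down to -8.66, and it was well above background on 8 of 20. Among low arrays these were only non-responders 5 and 8, so most low arrays hold only an upper bound. Ucp1 thus reached the filter mainly through the high arrays, and its differences and slope are a description. Its class difference was 4.68 in slide series 1 and 0.37 in slide series 2, and its overall difference of 2.52 ± 1.12 had a limma adjusted p of 0.797. Against the score Ucp1 had a slope of 1.32 ± 0.30 (adjusted p = 0.0556), which did not pass. Cox7a1, a respiratory chain subunit of muscle and brown fat, differed by 0.70 ± 0.55, Cpt1b, the muscle and brown fat carnitine palmitoyltransferase, by 0.53 ± 0.51, and Elovl3, a fatty acid elongase, by -0.53 ± 0.51. Dio2, Otop1, Zic1 and Ebf2 did not pass the filter.

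Markers of skeletal muscle and pancreas, 2 other tissues that can adhere to a liver sample, also varied over a wide range. All 10 skeletal muscle genes were higher in the high arrays, with a median difference of 0.77 (1.24 in slide series 1 and 0.34 in slide series 2), and none passed. Their mean log2 level ran from -6.21 to 5.25 in the high arrays and from -5.43 to 5.22 in the low arrays, so the classes overlapped almost fully. Myh4, the fast myosin heavy chain, ran from -8.82 to 4.91 in the high arrays and from -7.04 to 5.07 in the low arrays, a difference of 0.92 ± 1.60. Mylpf, a fast myosin light chain, differed by 1.04 ± 1.01, and the fast troponin genes Tnni2 and Tnnc2 by 1.13 ± 1.29 and 0.99 ± 1.45. All 19 tested pancreatic acinar genes were higher, with a median of 0.90 (1.21 in slide series 1 and 0.36 in slide series 2), and none passed. Their mean level ran from -6.01 to 4.60 in the high arrays and from -6.19 to 3.43 in the low arrays. Cela2a, an elastase, differed by 1.23 ± 1.01, Ctrl, a chymotrypsin-like protease, by 1.27 ± 1.05, Ctrb1, chymotrypsinogen, by 1.04 ± 0.87, and Gp2, the zymogen granule membrane glycoprotein, by 1.28 ± 1.16. The members of each of these lists moved together from array to array, so a count of members is not a count of independent readings. With the replicate number as a block the muscle and pancreas medians turned negative. The part of muscle and pancreas RNA in any result here was not tested.

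**Figure D3:**
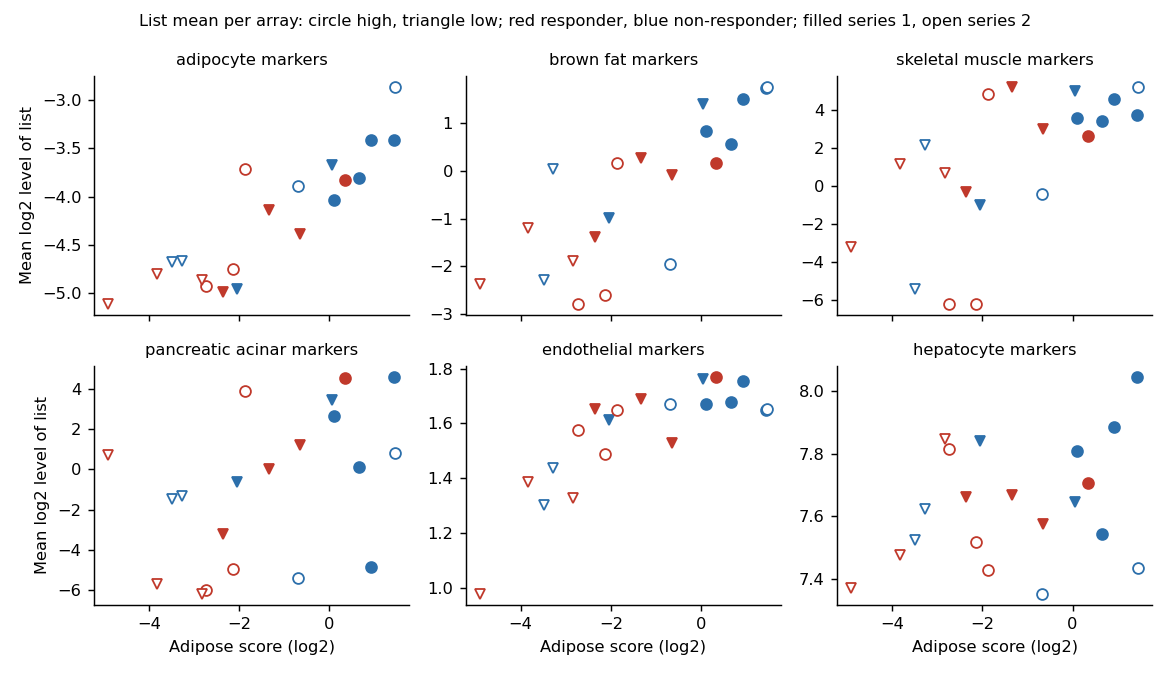
Mean log2 level of the members of 6 lists with a value on every array (y) against adipose score (x) on the 20 arrays; circles are high and triangles low arrays, red responders and blue non-responders, filled symbols slide series 1 and open symbols slide series 2. Skeletal muscle and pancreatic acinar means span about the same range in both classes, from -6.21 to 5.25 and from -6.19 to 4.60, while the mean of 14 hepatocyte genes stays between 7.35 and 8.05.

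Marker genes of endothelial, stellate, fibroblast and smooth muscle cells had smaller differences of mostly 1 sign. Whether their RNA came from liver or from attached tissue was not tested. All 15 endothelial genes were higher in the high arrays, with a median of 0.19 (0.06 in slide series 1 and 0.32 in slide series 2), and none passed. Lyve1, a marker of sinusoidal and lymphatic endothelium, differed by 0.44 ± 0.14, Gpihbp1, which anchors lipoprotein lipase to capillaries, by 0.23 ± 0.07, Ptprb by 0.22 ± 0.08 and Fcgr2b by 0.20 ± 0.07. The endothelial list mean was lowest in responder 9, the array of lowest score, at 0.98, and 1.30 to 1.77 elsewhere. Cav1, a caveolar protein of endothelium and fat cells, was the 1 member of the 15 that rose with the score (0.28 ± 0.06), where 0.46% of all features rose. Of 20 stellate cell and fibroblast genes 18 were higher, with a median of 0.22 (0.08 in slide series 1 and 0.38 in slide series 2) and none passing; Vim differed by 0.42 ± 0.11, Thy1 by 0.39 ± 0.16, Lrat, the retinol esterifying enzyme of stellate cells, by 0.31 ± 0.13, and Dcn, decorin, by 0.18 ± 0.07. In the slope fit 2 of the 20, Col1a2 and Vim, rose, against 0.46% of all features. Of 8 smooth muscle genes 7 were higher (median 0.31, none passed), Cnn1 by 0.84 ± 0.33 and Tagln by 0.30 ± 0.12.

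All 13 macrophage genes were higher, with a median of 0.14, and none passed. Mrc1, the mannose receptor, differed by 0.24 ± 0.08, and Cd5l, a secreted protein of Kupffer cells, by 0.20 ± 0.17. The 8 tested mesothelial genes were all higher with a median of 0.20, and none passed. Among them Gpm6a differed by 0.23 ± 0.18. Of 12 lymphocyte genes 7 were higher (median 0.04, negative in 5 of 35 alternatives, normexp background correction among them), with Cd3d, a part of the T cell receptor complex, at 0.18 ± 0.11. Of 7 cholangiocyte genes 5 were higher (median 0.07, negative in 5 of 35 alternatives), led by the trefoil peptide Tff2 at 1.27 ± 0.70, while Sox9, the biliary transcription factor, was at -0.33 ± 0.20. Of 4 red blood cell genes 1 was higher (median -0.17), and the erythroid haem enzyme Alas2 was at -0.14 ± 0.09. None of these 3 lists had a member that passed.

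**Figure D4:**
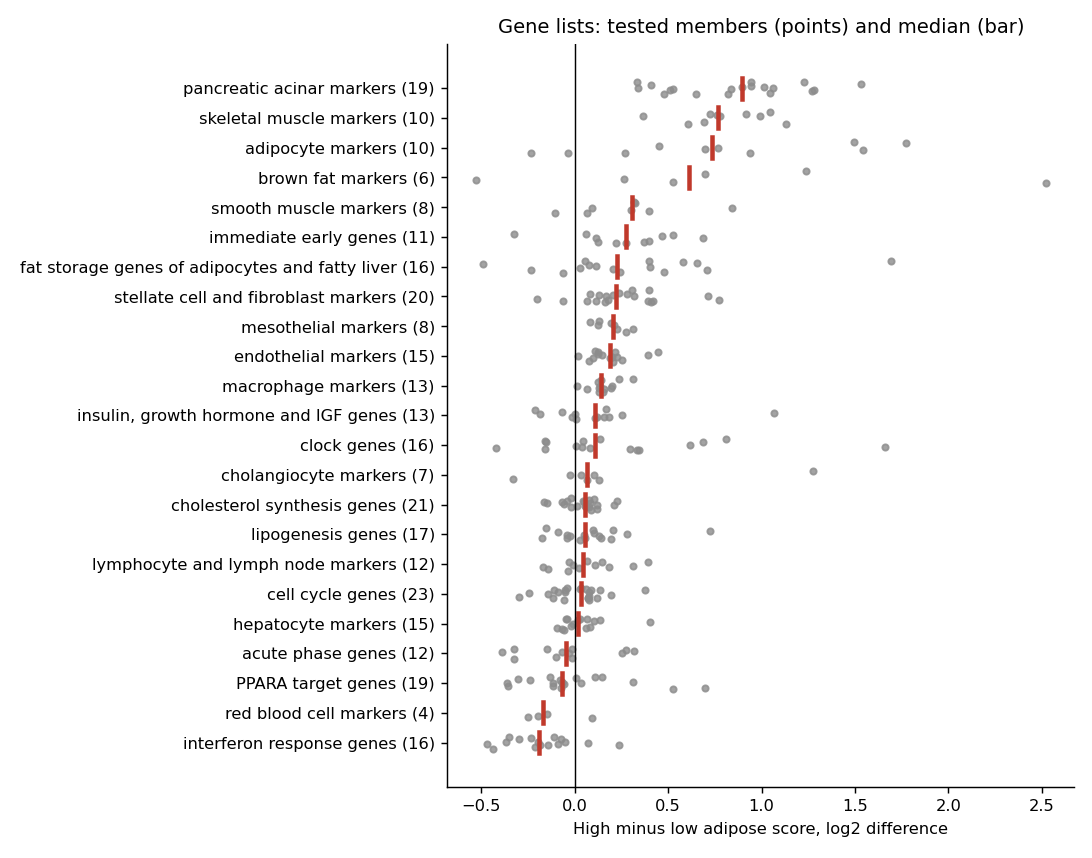
Difference between high and low arrays (x, log2) for each tested member (points) and the list median (bars) of 23 gene lists, with the number of tested members in brackets. Medians run from -0.19 for interferon response genes to 0.90 for pancreatic acinar genes, and no member of any list passed the test of the classes.

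For lists of the hepatocyte's own programmes the medians lay between -0.07 and 0.06, and several had no settled sign. Of 15 hepatocyte genes 8 were higher, with a median of 0.02 (0.11 in slide series 1 and -0.07 in slide series 2), which turned negative in 10 of 35 alternatives, the authors' deposited values among them, and no member passing; Tat, a tyrosine-degrading enzyme, was at 0.40 ± 0.27. Of 17 lipogenesis genes 11 were higher (median 0.06), with Mlxipl, the carbohydrate response factor ChREBP, at -0.17 ± 0.09. Of 21 cholesterol synthesis genes 14 were higher (median 0.06), and the median was 0.25 in slide series 1 and -0.25 in slide series 2, with its sign turned in 7 of 35 alternatives. Of 19 PPARA targets 7 were higher (median -0.07), with the coactivator Ppargc1a at 0.53 ± 0.19. Of 23 cell cycle genes 13 were higher (median 0.03, negative in 12 of 35 alternatives, normexp background correction among them), with Rrm2, a ribonucleotide reductase subunit, at 0.38 ± 0.22. No member of these lists passed in the class comparison or in the slope fit.

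Among signalling lists, 10 of 11 immediate early genes, which respond within minutes to stress or handling, were higher in the high arrays, with a median of 0.28. Ier3 differed by 0.40 ± 0.11, the phosphatase gene Dusp1 by 0.69 ± 0.26, and the AP-1 members Jun and Junb by 0.52 ± 0.23 and 0.47 ± 0.20. Of 16 interferon response genes only 2 were higher, with a median of -0.19; Oasl1 was at -0.47 ± 0.21, Mx1 at -0.44 ± 0.25 and Mx2 at -0.30 ± 0.17. Of 16 clock genes 12 were higher (median 0.11), with Ciart at 1.66 ± 1.13 and Nr1d2 at 0.35 ± 0.23. Of 12 acute phase genes 3 were higher (median -0.05, positive in 3 of 35 alternatives), with the interleukin-1 receptor Il1r1 at 0.32 ± 0.27. Of 13 insulin, growth hormone and IGF genes 9 were higher (median 0.11). None of these lists had a member that passed in either fit.

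Igfbp1, an IGF-binding protein that insulin represses in liver, had a class difference of 1.07 ± 0.42 (limma unadjusted p = 0.0203). Its levels ran from 4.64 to 7.31 in the high arrays and from 3.74 to 7.11 in the low ones. Its relative Igfbp2 differed by 0.26 ± 0.15, at 0.58 in slide series 1 and -0.07 in slide series 2. Neither passed.

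The crossing with the responder label asked whether the responder difference changes once the adipose class is in the model. With slide series alone as a term 0 of 17820 features passed between responders and non-responders (0%) by limma, and 1395 had an unadjusted p under 0.05. With the class added 0 passed (0%), with 1184 at an unadjusted p under 0.05, and with the score itself added 0 passed and 1093 were under 0.05.

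Plin1 moved most among the genes followed through these models. It rose with the score (slope 0.74), and the score was lower in responders. A smaller Plin1 difference with the score as a term was thus largely fixed in advance. Its level was -5.71 ± 0.91 (SD, n = 10) in responders and -3.86 ± 1.36 (SD, n = 10) in non-responders. The responder difference of Plin1 was -1.68 ± 0.47 (SE) without the class, -1.42 ± 0.39 with it, and -0.84 ± 0.33 with the score. Igfbp1 was 4.88 ± 0.90 in responders and 6.50 ± 0.68 in non-responders, and its difference was -1.56 ± 0.35, then -1.39 ± 0.31 with the class and -1.34 ± 0.38 with the score. Cidec, a droplet protein of fat cells and fatty hepatocytes, went from -1.16 ± 0.36 to -1.13 ± 0.38 and -1.02 ± 0.41. Igfbp2 went from -0.43 ± 0.13 to -0.40 ± 0.13 and -0.38 ± 0.15. The changes between these models were not tested, and the limma adjusted p-values of the 4 genes lay between 0.371 and 0.783.

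With the class in the model the smallest p-values were those of Fndc4, which encodes a secreted fibronectin type III protein (0.29 ± 0.05, limma adjusted p = 0.558), and the lysine methyltransferase gene Setd7 (-0.41 ± 0.08, adjusted p = 0.558). Others higher in responders were Tafa5 (0.53 ± 0.11), the hepatic lipase gene Lipc (0.33 ± 0.07), the G protein subunit gene Gna14 (1.22 ± 0.27) and Serpina12, the adipokine vaspin (0.71 ± 0.16). Others lower in responders were Igfbp1, the transcription factor gene Foxc1 (-0.68 ± 0.16), Golga5 (-0.27 ± 0.07) and Zfp84 (-0.29 ± 0.07). None passed.

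**Figure D5:**
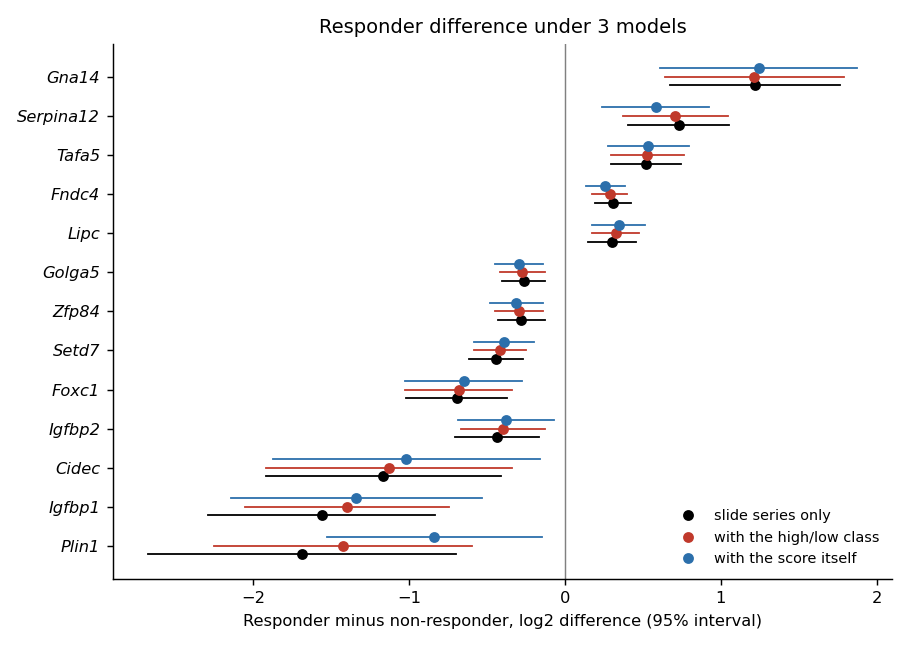
Responder minus non-responder log2 difference with its 95% interval (x) for 13 genes under 3 models: slide series only (black), with the high or low class added (red) and with the score itself added (blue). Plin1, which rose with the score, shrinks from -1.68 to -0.84 across the models, a change largely fixed in advance. Gna14 stays at 1.22 to 1.24.

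A class difference that depends on the label was called for 3 features of 17820 (0.0168%) by the limma interaction test. Hsd17b6, an enzyme of steroid and retinol metabolism, was 2.72 ± 0.32 in high (SD, n = 6) and 1.49 ± 0.26 in low (n = 4) non-responder arrays. In responders it was 1.77 ± 0.36 in high (n = 4) and 2.18 ± 0.20 in low (n = 6) arrays. In non-responders its high arrays ran from 2.41 to 3.28 and its low arrays from 1.18 to 1.78. In responders the high arrays ran from 1.46 to 2.22 and the low arrays from 2.01 to 2.48. The gene was picked by its interaction, so these ranges are a description. The class difference of Hsd17b6 in responders minus that in non-responders was -1.69 ± 0.26 (SE, adjusted p = 0.0344). Cabcoco1 had an interaction of -1.51 ± 0.23 (adjusted p = 0.0344), with class differences of -0.57 ± 0.10 in responders and 0.91 ± 0.17 in non-responders. Slc17a1, a phosphate transporter, had an interaction of 0.98 ± 0.14 (adjusted p = 0.0344), with 0.33 ± 0.10 in responders and -0.65 ± 0.11 in non-responders.

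These 3 calls rest on small cells, since slide series 1 holds 1 high responder array. The count was 0 when any 1 of 14 arrays was left out, namely responders 1, 2, 3, 4, 5, 7, 8 and 9 and non-responders 1, 2, 3, 5, 6 and 10. It was 39 without non-responder 9. It was 5 without non-responder 4 and 1 without non-responder 8 or responder 10. All 3 interactions kept their sign in every fit that left out 1 array. These fits share most of the arrays that chose the 3 genes, so the kept signs are no separate support.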

How the data were processed

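Total RNA of mouse liver was hybridised to 20 1-colour Agilent arrays (10 responder, 10 non-responder). The deposited scanner files give intensity per spot, background-corrected by Agilent Feature Extraction, whose version reads 10.5.1.1 per the file headers, while the submitters' processing notes name 9.1. The authors' deposited value table, on a linear intensity scale, served as an alternative. The deposited flags per spot (other values) marked probes well above background.

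Signals were taken as log2 and each array was shifted by its own 75th percentile. Of 41174 probes 27160 were kept, well above background on at least 5 of 20 arrays, and the brightest probe stood for a gene, leaving 17820 features tested beside Adipoq and Cfd. Fits used limma 3.58.1 in R 4.3.3 with slide series as a term and Benjamini-Hochberg adjustment at 0.05. The number of arrays limits the precision. The fits were tested on simulated data. Alternatives covered background, scaling, filter, probe choice, slide, slide series, replicate block, score gene and each array left out.

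The members and lists were chosen with earlier results of these data known. Named genes were, by rule, those past the threshold with 1 sign in both slide series. Where fewer than 5 passed, up to 10 of smallest p were taken per direction, again only with 1 sign in both slide series. Added to them were up to 5 per direction in the responder fit with the class, all adipocyte markers, up to 4 of smallest p per other list, and Igfbp1, Igfbp2, Plin1 and Cidec. Genes named in the slope and interaction fits were chosen after their values were seen. Pck1, Irs2, Serpina1e, Hbb-b1 and Try4 were not analysed here. Values of some list members are left out.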

Additional observations from a re-analysis of the deposited data

Results flagged for a closer look

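Dixon's test was applied to 285 groups of values. Most held the 10 arrays of a class, and a few held the scores of the 5 arrays of a class within a slide series. In 13 of the 285, 1 array stood apart from the rest of its class. Chance gives about 1 in 20.

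Among the high arrays, non-responder 4 read 6.55 for the Kupffer cell gene Cd5l (next 5.69) and 3.47 for the macrophage list mean (next 2.85). Non-responder 7, the array of highest score, read -1.77 for Gprc5b, a receptor gene that rose with the score. Responder 8 was lowest for the mean of PPARA targets, at 2.70 (next 3.46).

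Among the low arrays, responder 9, the array of lowest score, was lowest for Cd3d at -3.04, Ier3 at -4.58 and Penk, the enkephalin precursor, at -5.38. Non-responder 5, the low array nearest the line in slide series 1, was highest for Tff2 at 0.29 and Chst1 at -2.80, and lowest for C9 at 4.02. Non-responder 9 was lowest for Trarg1 at -6.24, responder 1 was lowest for Foxc1 at -6.24, and non-responder 8 was highest for Slc17a1 at 0.75.

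The difference between high and low arrays depended on the responder label for 3 genes by the limma interaction test (adjusted p = 0.0344 each). Responders minus non-responders, it was 0.98 for Slc17a1, -1.51 for Cabcoco1 and -1.69 for Hsd17b6.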

How the results depend on the processing

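The count of features called between high and low arrays was 1 in each of the 20 fits that left out an array (range 1 to 1). It was 0 with normexp background correction, with only those probes kept that every array detected well above background (Ccl17 is then not tested), without the slide series term, in slide series 1 or 2 alone, with the replicate block, with the arrays divided by Adipoq alone, and without the arrays at rank 5 and 6. At an unadjusted p under 0.05 these 8 fits had 553 to 1577 features. With the continuous score the count was 85. That slope count was 18 with normexp, 27 with no filter, 900 without the series term, 3 and 22 in slide series 1 and 2 alone, 14 with the responder label, 37 without ranks 5 and 6, and 4 to 252 with 1 array left out. The interaction with the label was called for 12 features in slide series 1 alone, and for 0 with no filter, without the series term, in slide series 2 alone, divided by Adipoq alone or without ranks 5 and 6, and for 0 to 39 with 1 array left out. Both responder fits and the interaction with slide series stayed at 0 in every alternative run (0 to 0 with 1 array left out).

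The responder difference in score was -1.36 by Cfd alone (exact permutation p = 0.0614), -1.35 with quantile normalization (p = 0.0508) and -1.35 in the authors' values (p = 0.0512), -1.19 and -1.55 in slide series 1 and 2 alone, and -1.65 to -0.91 with 1 array left out. The call held by Adipoq alone (-1.37, p = 0.0373), with normexp (-1.05, p = 0.0291) and with labels permuted over all arrays (-1.74, p = 0.0345).

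Replicate numbers did not pair the arrays: 7 of 10 same-numbered pairs correlated above 0.1 (from -0.285 to 0.592), and 1 of 10 was best with its own number. With the replicate block 0 features were called between classes, 3 in the slope fit and 0 in the interaction with the label, and Sncg turned to -0.041, Mylpf to -0.32, Tnni2 to -0.80, Tnnc2 to -1.29 and Myh4 to -1.95.

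Other signs turned for Erg (-0.11) and, in the responder fit with the class, Zfp84 (0.033) in the authors' values, for Aqp7 with normexp (-7.4e-05), and for Lipe (0.015) and Igfbp2 (-0.065) in slide series 2 alone. The cause was not tested. The planned normexp fit was not used, because the fitted background SD exceeded 10 on 6 arrays (largest 5234). Local background was capped instead, after seeing the data (largest 1.99). Every normexp result here also has an offset of 50 added to the corrected signal. The slope fit's alternatives were also added after seeing the data. Signal over background limits Ccl17, Retn, Plin1 and Ucp1, which were not well above background on every array. The same holds for Vav3, Inka1, Abcc10, Wdr54, Trarg1, Nnat, Rbp7, Aqp7, Adrb3, Sncg, Cidea, Gp2, Myh4, Mx1 and Ciart. It also holds for Aoc3, Apcdd1, F13a1, Retnla, Cma1, Defb34, Tafa5 and Foxc1.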
